A study of Saccharomyces cerevisiae with 12 samples.

Results

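The genes described here are the 8 genes of *S. cerevisiae* for the enzymes that turn sulfate into sulfide and for the cofactor of the last of these enzymes: *MET3*, *MET14*, *MET16*, *MET22*, *MET5*, *MET10*, *MET1* and *MET8*. They were chosen by their role in the pathway, not by their level on the arrays, and each was measured by 1 probe set. They make up 8 of 5449 named genes and of 5667 features tested, a feature being a single probe set per named gene or a probe set with no gene listed. The study picked out the same 8 genes from these arrays, so the direction in which they moved is not independent evidence.

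Sulfate that enters the cell is chemically inert and has to be activated with ATP before it can be reduced. The activated sulfate (adenylyl sulfate) is phosphorylated, reduced to sulfite, and the sulfite is then reduced to sulfide by sulfite reductase, an enzyme that carries siroheme, an iron tetrapyrrole made from an intermediate of heme synthesis. Sulfide is the form in which yeast builds sulfur into homocysteine, and from there into methionine and cysteine. Sulfite is thus an intermediate of the pathway as well as the form in which SO2 is found inside cells, and in yeast the transcription of the pathway is known to be governed by the activator Met4 with its partners.

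RNA was hybridized to 12 Affymetrix Yeast Genome 2.0 arrays, 3 from each of 4 groups of cultures that the labels describe as biological replicates. Wild-type cells were the haploid strain BY4741, of mating type **a** and carrying *his3*, *leu2*, *met15* and *ura3* deletions, and the mutant *com2*Δ was a single deletion strain from a collection in that same background. *COM2* encodes a zinc finger transcription factor related to Msn2 and Msn4. Cells of either strain, grown in minimal medium at pH 3.5, spent 60 min without SO2 (control cells) or with 0.5 mM SO2. All 4 groups lack *MET17*, the current name of *met15*, so that none of the cultures could use sulfide by the usual route, and the methods state that methionine, leucine, histidine and uracil were added to the medium.

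The deposited values are intensities on a linear scale, 1 per probe set and array. *COM2* read 2368 to 3680 in wild-type and 9.35 to 20.3 in *com2*Δ cells. On the 12 arrays the deleted genes read 71.6 to 152 (*LEU2*), 5.38 to 17.8 (*MET17*) and 8.92 to 39.4 (*URA3*). Background thus differed between probe sets, and *LEU2*, with which dim genes are compared below, was the brightest of these. *HIS3*, of which the *his3* allele removes a part, read 5517 to 20483. Among the marker genes of mating type **a**, *MFA1*, *MFA2*, *STE2*, *STE6* and *BAR1* read 3079 to 25385, and among those of mating type alpha *MF(ALPHA)1* and *MF(ALPHA)2* read 19.6 to 228, while *STE3* and *SAG1* read 166 to 2209. Medians of the arrays were 1673 to 1868, and Pearson's r between replicates was 0.974 to 0.995, taken over probe sets. The log2 intensities were fitted with limma, and a gene was called when it differed by 2-fold or more, at p below 0.05 and a Benjamini-Hochberg rate of false discoveries below 10% among all 5667 features.

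With SO2, all 8 genes rose in wild-type cells, from 3.44-fold for *MET14* to 15.9-fold for *MET1*, and on every array with SO2 each gene was above every array without it. The count of 8 of 8 stands against 10.5% of all features called higher and 8.36% called lower in this comparison, and against 31.7% of all features whose arrays with SO2 lay all above those without. Their median log2 fold change was 3.52, and that of all features was 0. None of the 8 was called higher with SO2 in *com2*Δ cells, and *MET14* was called lower there. The RNA came from whole cultures, in which less of a transcript per cell and fewer cells that make it cannot be told apart.

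**Figure D1:**
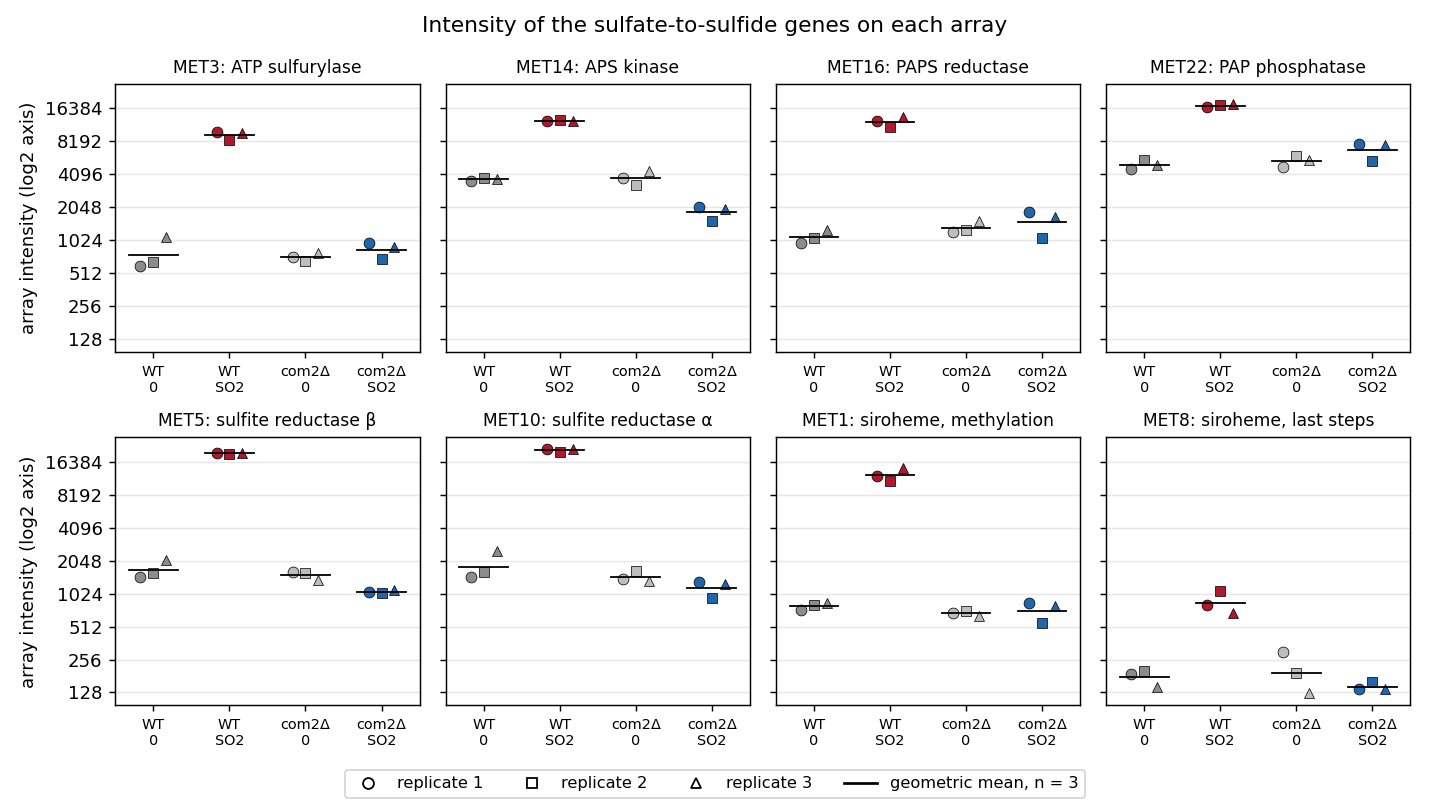
Intensity of each of the 8 genes on the 12 arrays, on a log2 axis, for wild-type (WT) and *com2*Δ cells without (0) and with SO2; symbols give the replicate number and lines the geometric mean of 3 arrays. In each panel the 3 wild-type arrays with SO2 lie above the other 9, and the readings of *MET8* run from 126 to 1091.

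Sulfate activation begins with *MET3* (YJR010W), which encodes ATP sulfurylase and makes adenylyl sulfate. Its intensities were 589, 648 and 1083 in wild-type control cells and 10039, 8425 and 9683 with SO2. In the mutant they were 718, 663 and 783 without and 957, 685 and 878 with SO2. The wild-type arrays with SO2 thus stood apart from the other 9, among which the highest was the third wild-type control array, and the control arrays of the strains overlapped. *MET3* rose 12.6-fold in wild-type cells (95% confidence interval 9.17 to 17.2, n = 3 against 3, adjusted p = 1.86e-07 from limma), the twelfth highest log2 fold change of all features. Its log2 fold change with SO2 in *com2*Δ cells was 0.21 (interval −0.24 to 0.66, adjusted p = 0.487 from limma).

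*MET14* (YKL001C) encodes adenylylsulfate kinase, which phosphorylates adenylyl sulfate. It read 3549, 3801 and 3696 in wild-type control cells and 12564, 12824 and 12578 with SO2, and in *com2*Δ cells 3813, 3292 and 4349 without and 2067, 1521 and 1953 with SO2. Its groups with SO2 moved apart in both directions from control levels that overlapped between the strains, and its wild-type arrays spread little within their groups. It rose 3.44-fold in wild-type cells (interval 2.83 to 4.18, adjusted p = 9.09e-07 from limma) and fell 2.07-fold in *com2*Δ cells (log2 fold change −1.05, interval −1.33 to −0.77, adjusted p = 0.000233 from limma). This fall lay close to the 2-fold limit. The log2 fold change was −0.92 when replicate 2 of the mutant with SO2 was left out, −0.95 when replicate 3 of its control cells was and −0.77 with array weights, each with an adjusted p that passed and a fold that did not.

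*MET16* (YPR167C) encodes the reductase that uses thioredoxin to convert phosphoadenylyl sulfate into sulfite. Its intensities in wild-type cells were 963, 1070 and 1264 without and 12676, 10982 and 13614 with SO2. Those of *com2*Δ cells were 1207, 1276 and 1540 without and 1835, 1066 and 1678 with SO2, so that the groups of the mutant overlapped and replicate 2 with SO2 was the lowest of all 6. The rise in wild-type cells was 11.3-fold (interval 8.44 to 15.2, adjusted p = 1.76e-07 from limma). The log2 fold change in *com2*Δ cells was 0.16 (interval −0.27 to 0.58, adjusted p = 0.593 from limma).

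*MET22* (YOL064C) encodes a phosphatase, itself a known target of lithium and sodium, that removes the adenosine bisphosphate left over by Met16. This by-product is toxic when it accumulates. *MET22* read 4570, 5524 and 4997 in wild-type control cells and 16757, 17457 and 17939 with SO2. The mutant gave 4775, 5969 and 5510 without and 7664, 5402 and 7516 with SO2. The mutant was therefore higher with SO2 on 2 arrays and within its control range on replicate 2. *MET22* rose 3.46-fold in wild-type cells (interval 2.79 to 4.30, adjusted p = 1.67e-06 from limma). The log2 fold change in *com2*Δ cells was 0.33 (interval 0.02 to 0.64, adjusted p = 0.102 from limma), the highest of the 8 genes there, and without replicate 2 with SO2 it was 0.49 (adjusted p = 0.0109 from limma), still under 2-fold.

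Sulfite reductase, which reduces sulfite to sulfide, is made of alpha and beta subunits. *MET5* (YJR137C), for the beta subunit that holds siroheme, read 1470, 1571 and 2077 in wild-type control cells and 19594, 19296 and 19909 with SO2. Without *COM2* it read 1631, 1591 and 1370 in control cells and 1054, 1048 and 1104 with SO2. All 3 mutant arrays with SO2 were thus below all 9 others, and close to each other. *MET5* rose 11.6-fold in wild-type cells (interval 9.61 to 14.0, adjusted p = 1.52e-08 from limma). The mutant had a log2 fold change of −0.51 (interval −0.79 to −0.24, adjusted p = 0.0101 from limma), past the false discovery rate and under 2-fold.

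*MET10* (YFR030W), for the alpha subunit that passes electrons from NADPH through its flavins, read 1440, 1615 and 2502 in wild-type control cells and 21311, 20091 and 21332 with SO2. In *com2*Δ cells its intensities were 1399, 1638 and 1325 without and 1312, 940 and 1247 with SO2. Both strains overlapped without SO2, and the mutant arrays with SO2 lay below those without, by a narrow margin. The rise in wild-type cells was 11.6-fold (interval 8.67 to 15.6, adjusted p = 1.70e-07 from limma), with a log2 fold change of 3.54 for both subunits. With SO2 the log2 fold change of *MET10* in *com2*Δ cells was −0.33 (interval −0.75 to 0.09, adjusted p = 0.224 from limma), and −0.18 (adjusted p = 0.543) without replicate 2 with SO2.

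Siroheme is made by *MET1* (YKR069W), the methyltransferase that takes uroporphyrinogen III away from heme synthesis, and by *MET8* (YBR213W), which oxidizes the product and inserts the iron. *MET1* read 723, 800 and 836 in wild-type control cells and 12299, 11037 and 14360 with SO2. The mutant read 684, 717 and 645 without and 838, 555 and 790 with SO2, groups that overlapped. Its rise of 15.9-fold in wild-type cells (interval 12.6 to 20.1, adjusted p = 2.17e-08 from limma) was the highest of the 8 genes and ranked 11 of 5667 features. Its log2 fold change in *com2*Δ cells was 0.07 (interval −0.26 to 0.41, adjusted p = 0.769 from limma).

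*MET8* gave dim readings, with 189, 201 and 143 in wild-type control cells and 810, 1091 and 686 with SO2. It read 299, 195 and 126 in *com2*Δ control cells and 139, 160 and 137 with SO2. Apart from the wild-type cells with SO2, these readings came close to those of *LEU2*, which is deleted in both strains and read 71.6 to 152, and in the mutant with SO2 both ranges overlapped, with *LEU2* at 105 to 152. On the wild-type control arrays *LEU2* read 87.1 to 94.2, below *MET8*, and the *com2*Δ control arrays spread widely. *MET8* rose 4.82-fold in wild-type cells (interval 3.18 to 7.29, adjusted p = 3.29e-05 from limma), or 2.17 on the log2 scale in place of 2.27 when 16 was added to each intensity. Its log2 fold change in the mutant was −0.42 (interval −1.02 to 0.18, adjusted p = 0.272 from limma).

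The 8 responses of wild-type cells fell into a high and a low range. *MET1*, *MET3*, *MET5*, *MET10* and *MET16* had log2 fold changes of 3.50 to 3.99 with intervals that overlapped, all among the 19 highest of 5667 features. *MET8* followed at 2.27, *MET22* at 1.79 and *MET14* at 1.78, at ranks 85, 172 and 175. The interval of *MET14*, which ended at 2.06, did not reach those of the 5 genes above, whose lowest bound was 3.08, whereas *MET14*, *MET22* and *MET8* overlapped. *MET14* and *MET22* had the highest mean intensities of the 8 in wild-type control cells, 3682 and 5030, and *MET8* the lowest, 178. With SO2 the mean intensities of *MET14* and *MET22* were 12655 and 17384, and that of *MET3* was 9382. Background differed between probe sets, so these intensities do not order the transcript levels of different genes. Differences between genes, and any effect of the starting level on the fold, were not tested.

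**Figure D2:**
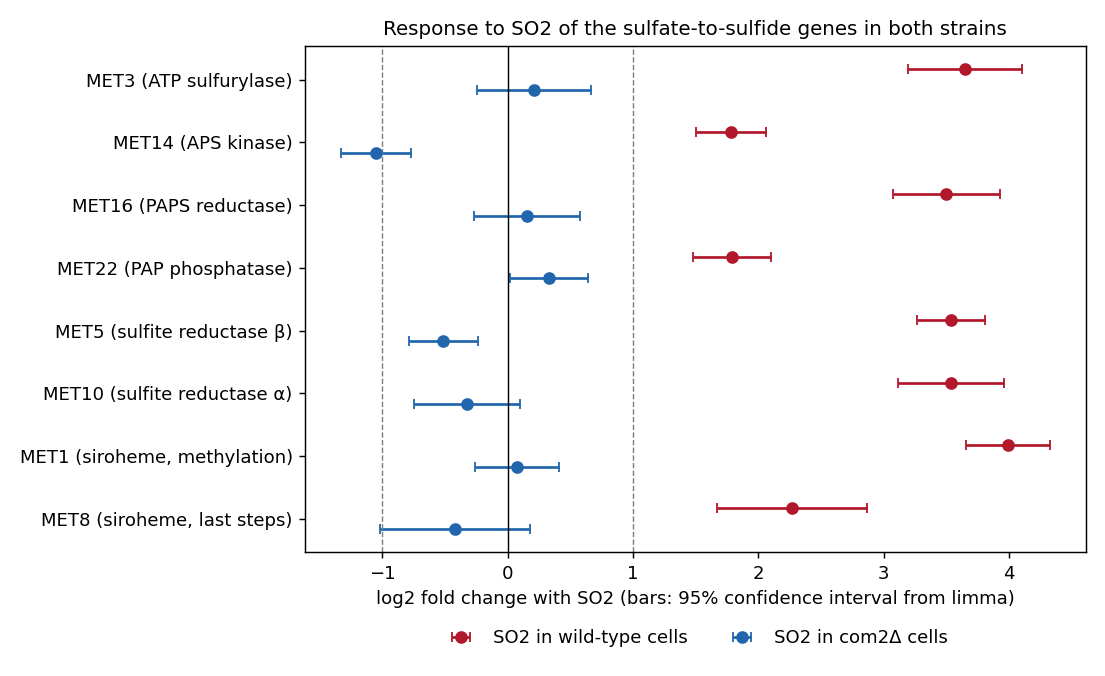
Log2 fold change with SO2 of each of the 8 genes in wild-type (red) and *com2*Δ (blue) cells, with the 95% confidence interval from limma over 3 against 3 arrays; dashed lines mark 2-fold. The intervals of the strains are apart for each gene, around values of 1.78 to 3.99 in wild-type and −1.05 to 0.33 in *com2*Δ cells.

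In *com2*Δ cells the 8 genes had a median log2 fold change of −0.13 with SO2, against 0.01 for all features, with 4 values above and 4 below 0. None of 8 was called higher, where 3.14% of all features were, and 1 of 8 lower (*MET14*), where 2.74% were. At an unadjusted p under 0.05 from limma there were 3 of 8 genes, where 2373 of all 5667 features were. Of the 3, *MET14* and *MET5* were lower and *MET22* higher with SO2, and the count is not read as a result about these genes. The arrays with SO2 lay all below those without for *MET14*, *MET5* and *MET10*, 3 of 8 genes, as they did for 23.1% of all features. The confidence intervals of the other 5 genes reached from a log2 fold change of −1.02 to 0.66, and none of these 5 passed the false discovery rate in this fit. With array weights all 5 and *MET10* passed it, at log2 fold changes of −0.51 to 0.39, all under 2-fold. These weighted changes lay close to the difference between single arrays, replicate 3 with SO2 and replicate 2 without. Their adjusted p therefore does not measure a spread between cultures, and this passing is not taken as a response.

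Without SO2, no difference between the strains was called for any of the 8 genes, and none had an unadjusted p under 0.05 (the lowest was 0.132 in limma's fit over 12 arrays). Of all 5667 features, 770 had such a p. In this comparison 0.353% of all features were called higher and 0.353% lower in *com2*Δ cells, so few calls were made for genes of any kind. The log2 differences ran from −0.31 for *MET10* to 0.29 for *MET16*, with adjusted p from 0.540 to 0.961 in limma. The intervals ran from −0.73 to 0.74 over the 8 genes. *MET1* was the single gene whose *com2*Δ arrays (645 to 717) lay all below the wild-type arrays (723 to 836), as did those of 10.1% of all features.

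Under SO2, all 8 genes were lower in the mutant than in the wild type, against 10.04% of all features called lower. Every *com2*Δ array was below every wild-type array for each gene, as for 34.8% of all features. The sulfite reductase genes differed most, with *MET5* 18.3-fold and *MET10* 18.1-fold lower, followed by *MET1* (17.4-fold), *MET3* (11.2-fold), *MET16* (8.33-fold), *MET14* (6.91-fold) and *MET22* (2.56-fold), with adjusted p of at most 1.66e-05 in limma for all 8. *MET8* was also called lower, but its size is not ranked here because its readings in the mutant overlapped those of the deleted *LEU2*. *MET5*, *MET10* and *MET1* were the seventh, eighth and ninth lowest of 5667 features. This comparison uses the same arrays with SO2 as the response of each strain, so the results are not independent of each other.

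The difference between the responses of the strains was tested directly with limma's interaction term, and was called for all 8 genes, against 9.30% of all features called for a lower response in *com2*Δ cells and 8.17% for a higher one. The median of the 8 differences on the log2 scale was −3.39, and that of all features 0.01. For *MET5* the difference was −4.05 on the log2 scale (standard error 0.18, adjusted p = 2.35e-07 from limma). For *MET1* the difference was −3.92 (0.22, 8.08e-07) and for *MET10* −3.87 (0.27, 3.98e-06). *MET22* had the smallest difference, −1.46 (standard error 0.20, adjusted p = 0.000254 from limma). *MET14*, whose rise in wild-type cells was close to that of *MET22*, had a difference of −2.83 (standard error 0.18), with log2 fold changes in *com2*Δ cells of −1.05 for *MET14* and 0.33 for *MET22*.

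The 8 genes deviated together on some of the arrays. On replicate 2 of the *com2*Δ cells with SO2, the genes lay at a median of −0.43 on the log2 scale from the mean of the other replicates, and 7 of 8 had their lowest value of the group there, the exception being *MET8*. Over all features this array had a median of −0.02 and a median absolute difference of 0.19. Without it, the log2 fold changes with SO2 in *com2*Δ cells were 0.35 for *MET3*, −0.92 for *MET14*, 0.40 for *MET16*, 0.49 for *MET22*, −0.50 for *MET5*, −0.18 for *MET10*, 0.26 for *MET1* and −0.49 for *MET8*. None of them reached 2-fold.

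Among the wild-type control arrays, replicate 3 held the highest value of 5 genes, above all for *MET3* and *MET10*, which lay 0.81 and 0.71 above the mean of the other replicates. Replicate 1 held the lowest value of 7 genes. Replicate 3 also had the highest median absolute difference over all features of any array, 0.25. Without this array the rise in wild-type cells was 3.92 for *MET3*, 3.78 for *MET10* and 3.69 for *MET5* on the log2 scale, and all 8 genes were still called. What set these arrays apart was not tested.

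**Figure D3:**
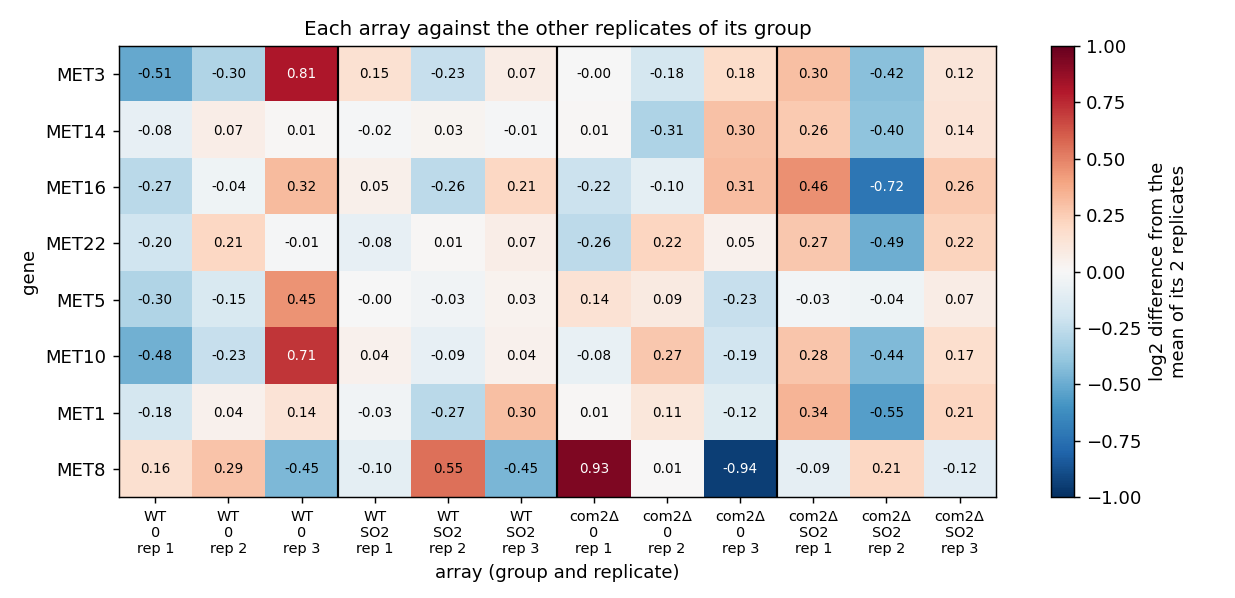
Log2 difference of each array from the mean of the other 2 replicates of its group, for the 8 genes (rows) and 12 arrays (columns; WT, wild type; 0, no SO2). Replicate 2 of the *com2*Δ cells with SO2 is below 0 for all genes except *MET8* (0.21), and *MET8* spreads most in the *com2*Δ control cells (0.93, 0.01 and −0.94).

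Across the 12 arrays each gene followed the mean standardized profile of the other 7, with a Pearson r of 0.995 for *MET1*, 0.991 for *MET5* and *MET10*, 0.985 for *MET3*, 0.977 for *MET16*, 0.934 for *MET22*, 0.930 for *MET8* and 0.906 for *MET14*. These are descriptions over arrays that share the same 4 groups. Outside the 8 genes, the 10 named genes with the most similar profile had r of 0.988 to 0.995. *SAM3*, the permease for S-adenosylmethionine, came first, and *SUL2*, a sulfate permease, was the last of these. The others were YDR124W, *QDR2* (a multidrug transporter), *CTP1* (the mitochondrial citrate carrier), YLL056C, *ASP3-1* (an asparaginase with near-identical copies, so that its reading is uncertain), *PIP2* (an activator of peroxisomal genes), *IML1* and YGL114W. *SAM3* rose by 2.64 on the log2 scale in wild-type cells with SO2 (standard error 0.10), and in *com2*Δ cells its value was −0.36 (0.10).

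The steps that feed the pathway were compared through 26 genes from textbook knowledge, chosen with earlier results of these data known. Counts of calls among them are therefore not independent evidence. With SO2 in wild-type cells 7 of the 26 were called higher and 2 lower (median log2 fold change 0.13), where 10.5% and 8.36% of all features were. In the mutant 1 was called higher and 1 lower (0.03), close to the 3.14% and 2.74% of all features. For the difference of the responses 1 was called higher and 7 lower, where 8.17% and 9.30% of all features were. Of the genes for entry of sulfate and exit of sulfite, both sulfate permeases rose in wild-type cells. *SUL1* read 949 to 1379 without and 11839 to 13596 with SO2 (log2 fold change 3.53, standard error 0.21), and *SUL2* read 440 to 626 and 10727 to 11585 (4.39, 0.15). Without *COM2* the intensity of *SUL1* was 217 to 277 in control cells and 70.0 to 124 with SO2, which lies at the readings of the deleted *LEU2*. It was called lower there, a call lost with array weights (−0.87 on the log2 scale). The size of the fall is taken as uncertain because the readings with SO2 lie at those of *LEU2*, although other deleted genes read lower. *SUL1* differed from the 8 genes in the control cells also, where it was lower in *com2*Δ by 2.22 on the log2 scale (standard error 0.21, adjusted p = 0.00034 from limma), the 1 gene of the 26 called between the strains without SO2. *SUL2* was lower there too, at −0.77 (0.15, adjusted p = 0.0369 from limma), which passed the false discovery rate but not 2-fold. *SSU1*, the sulfite exporter, and its activator *FZF1* were not called, with log2 fold changes of 0.42 and 0.40 in wild-type and 0.36 and −0.11 in *com2*Δ cells. Both passed the false discovery rate in wild-type cells (adjusted p = 0.0338 and 0.00918 from limma), under 2-fold.

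Genes that supply the enzymes with reductant and cofactors were not called higher in either strain. *TRX1* and *TRX2*, the thioredoxins that serve Met16, had log2 fold changes of −0.54 and −0.33 in wild-type cells, and *TRR1*, the thioredoxin reductase, 0.37. *IPP1*, which splits the pyrophosphate that Met3 releases, was at 0.49, and *FMN1* and *FAD1*, which make the flavins of Met10, at 0.01 and −0.69. The enzymes of heme synthesis up to uroporphyrinogen III, where siroheme branches off, ran from −0.89 for *HEM3* to 0.18 for *HEM1* in wild-type cells, with 0 of 4 called. Under 2-fold, *TRX1*, *TRX2*, *TRR1*, *IPP1*, *FAD1* and *HEM3* passed the false discovery rate in wild-type cells, each with an adjusted p under 0.05 from limma. So did 3373 of all 5667 features at that limit. *FMN1*, *HEM1*, *HEM2* and *HEM4* did not pass.

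After the branch point, 2 of 4 genes of heme synthesis were called lower in wild-type cells with SO2, where 8.36% of all features were. *HEM13*, coproporphyrinogen oxidase, fell by 1.59 (standard error 0.26, adjusted p = 0.000322 from limma), and *HEM15*, ferrochelatase, by 1.01 (0.10, 9.63e-06). The call of *HEM15* was lost without the third wild-type control array (−0.92), without the first wild-type array with SO2 (−0.97) and with array weights (−0.97). *HEM12* and *HEM14* had log2 fold changes of −0.60 and 0.62. No gene of the heme pathway was called in *com2*Δ cells. For the difference of the responses none reached 2-fold, although the false discovery rate was passed by *HEM13* (0.99, adjusted p = 0.0475 from limma), *HEM12* (0.91, 0.00167), *HEM15* (0.78, 0.00157), *HEM14* (−0.63, 0.0182) and *HEM4* (0.49, 0.00872). Under SO2 *HEM12* and *HEM13* exceeded in the mutant their wild-type level, by 1.03 and 1.11, where 7.62% of all features were called higher. *HEM12* was at 0.99 when replicate 2 of the mutant with SO2 was left out.

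At the point where sulfide is used, *MET17* is deleted in both strains and its probe set read 5.38 to 17.8. *MET2*, whose product *O*-acetylhomoserine accepts the sulfide, rose in wild-type cells by 5.10 on the log2 scale (standard error 0.25), more than any of the 8 genes. In the mutant it read 82.8 to 152 without and 86.8 to 138 with SO2. This is within the range of the deleted *LEU2*, although other deleted genes read lower, so no size of response is given there. The difference of its responses was called lower (adjusted p = 3.98e-06 from limma).

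The 6 regulators of sulfur genes belong to the same 26 genes, chosen with earlier results known. Of these 6, 4 were called higher in wild-type cells with SO2, where 10.5% of all features were. *MET28* and *MET32*, which encode partners of Met4, rose by 4.36 (standard error 0.32) and 3.04 (0.16). *MET30*, part of the ubiquitin ligase that restrains Met4, rose by 1.87 (0.18), and *MET4* itself by 1.08 (0.12). The rise of *MET4* was 0.996 and not called without replicate 3 of the wild-type cells with SO2, and 0.99 with median centring of the arrays. *MET31*, the relative of *MET32*, was at −0.96 (0.12, adjusted p = 5.38e-05 from limma), just under 2-fold, and *CBF1*, which binds beside Met4 at many sulfur genes, was at 0.05.

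*MET28* was the single regulator called in *com2*Δ cells, where 3.14% of all features were called higher, at 1.09 (standard error 0.32, adjusted p = 0.0235 from limma), and the call was lost without replicate 1 of the control cells (0.71), without replicates 1 and 3 with SO2 in turn (0.94 and 0.95) and with array weights (0.98). The differences of the responses were −3.27 for *MET28*, −3.02 for *MET32*, −1.34 for *MET30* and −1.03 for *MET4*, and that of *MET31* was 1.23 (standard error 0.17, adjusted p = 0.000325 from limma). In *com2*Δ cells *MET32* read 127 to 189 without and 134 to 164 with SO2. With SO2 this range overlapped that of the deleted *LEU2*, although other deleted genes read lower, so the size of the *MET32* difference is uncertain. For *MET4* the difference fell under 2-fold without the first wild-type control array (−0.98), the third wild-type array with SO2 (−0.95), the second *com2*Δ control array (−0.96) or the second *com2*Δ array with SO2 (−0.99), and with median centring (−0.96).

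**Figure D4:**
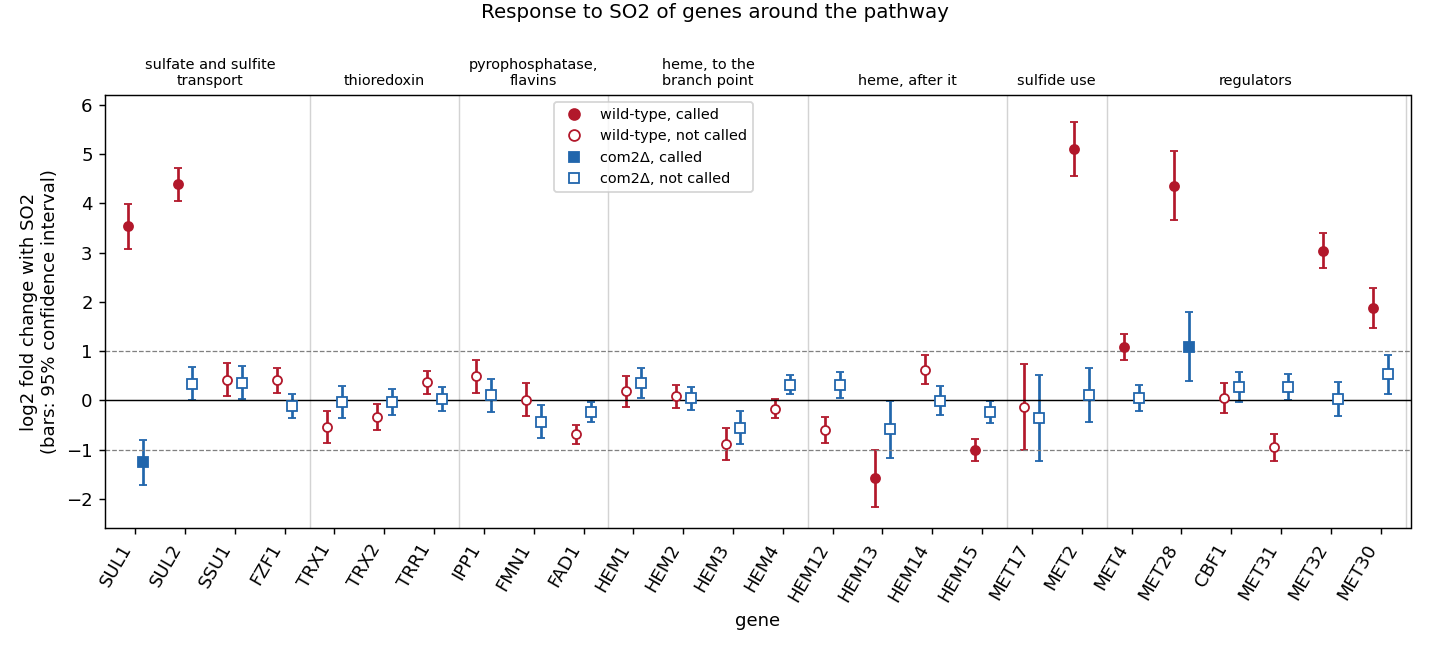
Log2 fold change with SO2 of 26 genes around the pathway in wild-type (red circles) and *com2*Δ (blue squares) cells, with 95% confidence intervals from limma; filled symbols were called and dashed lines mark 2-fold. *SUL1*, *SUL2*, *MET2*, *MET28*, *MET32*, *MET30* and *MET4* are called higher in wild-type cells, whereas the thioredoxin, flavin and early heme genes lie between −0.89 and 0.37.

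The genes that lie next to the 8 on the chromosomes of the R64 reference were looked at after the values of the 8 had been seen. Of 16 neighbours, 14 had a value, and 3 were called higher with SO2 in wild-type cells, where 10.5% of all features were, and none was in *com2*Δ cells. *NUT2*, a subunit of Mediator, is transcribed away from *MET16* and rose by 1.68 (standard error 0.21), and *IML1*, a subunit of the SEACIT complex that restrains TORC1, is transcribed away from *MET5* and rose by 1.65 (0.10). *PTR3*, of the sensor of external amino acids, lies upstream of *MET10* on the same strand and rose by 1.85 (0.29). *BET3*, which is transcribed away from *MET1*, was at 0.08. Their *com2*Δ values were 0.43, −0.04, 0.22 and 0.06, in this order. Other neighbours moved in both directions in wild-type cells, past the false discovery rate but under 2-fold. *SDS24*, *MRP2*, *VPS1*, YKR070W, *SPC1* and *DID4* were lower, down to −0.91 for *SDS24*. *CRT10*, *SMC2* and *TTI2* were higher, up to 0.78 for *CRT10*.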

How the data were processed

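Total RNA of 12 cultures was measured on Affymetrix Yeast Genome 2.0 arrays. The deposited values are linear intensities, made by the authors, as the paper's methods state, by invariant-set normalization and a perfect-match model in dChip after MAS 5.0 calls. The notes of the submitters list MAS5 without a version, and labels and paper differ on the number of arrays and the labelling kit. Of 5716 probe sets, 5498 named 1 gene, 0 several and 218 none, with 12 symbols updated by gene identifier. Several probe sets existed for 47 genes, and that of highest mean log2 intensity stood for the gene.

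Log2 intensities were fitted without further scaling in limma 3.58.1 (R 4.3.3), with 1 mean for each of 4 groups (8 residual and 3.24 prior degrees of freedom), all 12 arrays and Benjamini-Hochberg adjustment over 5667 features. The rule for named genes was the 8 members, the lists of genes around the pathway and the 10 genes of closest profile. Members and lists were chosen with earlier results of these data known. Neighbouring genes were taken from the R64 gene order. On simulated data of this size, for SO2 in wild-type cells, 95 of 100 features changed by 1.5 and 100 of 100 changed by 3 on the log2 scale were called, with 0 false calls. The simulated noise was independent for each feature and array. Deviations shared between genes on an array were not simulated, so the count of false calls does not carry over to these arrays.

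The alternatives were a replicate block, quantile normalization or median centring of the arrays, each array left out in turn, intensities with 16 added, leaving out the 25% dimmest features, only the 6 arrays compared, trended and robust variances, array weights and other thresholds. Same-numbered arrays of different groups deviated together in 7 of 18 pairs (r above 0.1). This count alone does not show whether the numbers mark pairs, and the main fit took the arrays as unpaired. Filters on Present calls or on the lower bound of the fold were not used, and promoter and protein sequences were not analysed here. The number of arrays limits the precision, and p-values measure the spread between cultures.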

Additional observations from a re-analysis of the deposited data

Results flagged for a closer look

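The response to SO2 differed between the strains for each of the 8 genes by limma's test of the difference itself (the interaction), with adjusted p of at most 0.000346. The response in *com2*Δ minus that in wild-type cells was, on the log2 scale, −3.44 for *MET3*, −2.83 for *MET14*, −3.35 for *MET16*, −1.46 for *MET22*, −4.05 for *MET5*, −3.87 for *MET10*, −3.92 for *MET1* and −2.69 for *MET8*. The *MET8* readings in the mutant with SO2 overlapped those of the deleted *LEU2*, so the size of its difference is uncertain. Single outlying arrays were not tested for in groups of 3.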

How the results depend on the processing

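For the 8 genes, 772 of 787 values recomputed under 20 alternatives kept their direction and their call. Many of these could not change in size. A log2 fold change stays the same when an array outside the comparison is left out. The same holds for the replicate block, other variances, fewer features or only the arrays compared. Small changes that were never called also count as kept, so this count is no measure of robustness. The adjusted p alone crossed 10% in 18 values, 14 in *com2*Δ cells and 4 between the strains without SO2, and none of these reached 2-fold. All 8 remained called for SO2 in wild-type cells, between the strains under SO2 and for the difference of responses in every alternative that held them (7 of 7 without the dimmest 25% of features, which leaves out *MET8*). With the replicate number as a block the counts of called genes were 8, 1, 0, 8 and 8 for SO2 in wild-type cells, SO2 in *com2*Δ cells, the strains without and under SO2 and the difference of responses, as without it. This block changed no call, and the numbers were not taken to pair the arrays (r of same-numbered deviations −0.31 to 0.47, and 6 of 12 arrays closest to their own number).

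In *com2*Δ cells the count of 1 gene called, *MET14*, became 0 to 1 when single arrays were left out, 0 with array weights and 2 (*MET14* and *MET5*) at an adjusted p under 0.05 with no fold limit. The sign of *MET1* turned there when single arrays were left out (−0.042 to 0.26). With array weights *MET14* and *MET16* passed the false discovery rate between the strains without SO2, with adjusted p of 0.0297 (−0.17) and 0.00859 (0.27) from limma, as did *MET22* (0.0982) and *MET1* (0.0814). The small differences between these strains also turned sign, for *MET3* (−0.22 to 0.22 with single arrays left out, 0.043 with array weights), *MET14* (−0.055 to 0.15, and −0.17), *MET5* (−0.24 to 0.0063, and 0.019) and *MET8* (−0.17 to 0.46, and −0.0062), and for *MET10* with array weights (0.015). Both directions lay within the intervals of the first fit, and the cause was not tested. The weights were estimated by an iteration that stopped before it converged, and the weighted differences lay close to those between single arrays. Adjusted p-values with array weights are therefore not taken as evidence of a difference.

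Over all features, calls with no fold limit were 3373 against 1068 for SO2 in wild-type cells, 1637 against 333 in *com2*Δ cells, 66 against 40 and 3530 against 1001 between the strains without and under SO2, and 2547 against 990 for the difference of responses. Without the dimmest features they were 144, 15 and 649 for *com2*Δ cells, the strains without SO2 and the difference. The strains without SO2 gave 74 calls without the third wild-type control array, 94 with array weights and 19 at a false discovery rate under 1%. For the 39 called results of other genes, 736 of 752 values kept their call, 16 lost it and 0 turned sign. Here too, many values could not change in size. The difference of responses needs all 4 groups, so a fit of only the arrays compared has no value for it. Depth cannot be given for arrays, and *MET8* lay close to the readings of the deleted *LEU2* in 3 of 4 groups.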
